A study of Mus musculus with 6 samples.

Results

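Chromatin accessibility was described at 44 nuclear receptor genes, taken as a gene set and found by symbol among 22367 protein-coding genes of the mouse mm9 annotation. All peaks of 3 genome-wide ATAC-seq peak tables that overlapped a gene body or the 10 kb on either side were assigned to the gene. Peaks within 1 kb of any annotated start site of the gene were called start-site peaks and all others were called other peaks. This gave 87 distinct peaks in Pax6-HIGH cells, 26 in Pax6-ON cells and 57 in Pax6-OFF cells.

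ATAC-seq maps open chromatin by the insertion of sequencing adapters by the Tn5 transposase. It was carried out on β-TC3 cells, an insulinoma (pancreatic beta cell tumour) line that expresses Pax6 at a high level (Pax6-HIGH), on MV+ cells, a line of lens epithelial origin from a C57BL6 mouse that expresses Pax6 (Pax6-ON), and on RAG cells, a renal adenocarcinoma line from a BALB/c mouse without Pax6 expression (Pax6-OFF). No treatment, genetic change or time course was part of the design, and the lines were not authenticated for the study. Libraries were made from 50000 nuclei with 11 PCR cycles and read as 75 bp pairs, with 2 replicates per line, and nuclei were released with 0.2% NP40 in Pax6-ON cells but 0.1% in the other lines. Each line stands for 1 tissue and 1 Pax6 state, and the mouse strain of β-TC3 cells was not given in the sources used here, so line, tissue, strain, Pax6 state and detergent cannot be told apart. The deposited peaks came from the pooled replicates of a line, so no value below carries a replicate error and none was tested.

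The tables held 28024 peaks in Pax6-HIGH cells, 9821 in Pax6-ON cells and 14022 in Pax6-OFF cells, from 100254099, 130955836 and 102223606 fragments. The lowest pileup of a called peak, the number of fragments over its summit, was 25, 30 and 25. Peaks were called by q-value against the local background rather than by a fixed pileup. A site without a peak did not pass that call in its line and is not shown to be closed. A lower pileup can mean fewer cells with the site open or a smaller opening in each cell. Peaks on chromosome 6 made up 14.9% of the Pax6-HIGH table, 6.62% of Pax6-ON cells and 4.81% of Pax6-OFF, and 2 of the receptor genes, Nr2c2 and Pparg, lie there. Of 12 beta cell marker genes, 6 had a start-site peak in Pax6-HIGH cells (Nkx6-1, Nkx2-2, Neurod1, Isl1, Mafa and Chga), while Ins1, Ins2 and Pdx1 had none. The other lines had one at 3 (Pax6-ON) and 1 (Pax6-OFF) of them. Of 11 lens epithelium markers, 3 had one in Pax6-ON cells (Pax6, Prox1 and Maf), and Cryaa and Foxe3 had none. The same 3 were called in Pax6-HIGH cells, at a median percentile (the share of the line's peaks with a lower pileup) of 65.3 against 14.1 in Pax6-ON cells, and Pax6-OFF cells had 2, so lens markers did not set Pax6-ON cells apart. Of 12 kidney tubule markers, 3 had one in Pax6-OFF cells (Pax2, Cdh16 and Emx2) and 1 in each other line. Fibroblast markers had 1 of 8 in each line, and leukocyte markers had 0 of 4. The share of all protein-coding genes with one was 46.4% for Pax6-HIGH, 21.4% for Pax6-ON and 36.1% for Pax6-OFF. Beta cell and lens markers lay near the share of their own line (50% and 27.3%), and kidney markers lay below theirs (25%). Beta cell markers stood at 25% for Pax6-ON and at 8.33% for Pax6-OFF. Whether marker shares differ from those of all genes was not tested. The Pax6 start site carried 175 fragments in Pax6-HIGH cells and 74 in Pax6-ON cells and had no peak in Pax6-OFF cells.

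Nuclear receptors are transcription factors with a zinc finger DNA-binding domain and a ligand-binding domain. Steroid and thyroid hormones, retinoids, vitamin D, bile acids and oxysterols bind some of them, whereas others are orphans without a known physiological ligand and act through their abundance or post-translational changes. Many bind DNA as dimers with the retinoid X receptors (RXR), and recruit coactivators or corepressors according to the ligand. They carry hormone, lipid, circadian and immediate early responses, and in pancreatic, renal and ocular tissue they are known for roles in metabolism, salt balance and retinoid signalling.

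A start-site peak was found for 29 of 44 receptor genes in Pax6-HIGH cells (65.9%, against 46.4% of all protein-coding genes), for 10 in Pax6-ON cells (22.7%, against 21.4%) and for 22 in Pax6-OFF cells (50%, against 36.1%). The share was thus above that of all genes in Pax6-HIGH and Pax6-OFF cells and near it in Pax6-ON cells. Any peak in the gene body or flanks was found for 36 members in Pax6-HIGH cells (background 61.6%), for 16 in Pax6-ON cells (background 30.6%) and for 31 in Pax6-OFF cells (background 48.9%). The receptor genes were longer than the average gene, with a median of 48.2 kb against 15.4 kb, and had a median of 5 annotated start sites against 2. The part of gene length and start-site number in these counts was not tested.

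The order of Pax6-HIGH and Pax6-OFF cells changed with the number of peaks taken, while Pax6-ON cells had the fewest members in both cases. When the 9821 peaks of lowest q-value were taken from each table, 13 members kept a start-site peak in Pax6-HIGH cells (29.5%, background 28.0%), 19 in Pax6-OFF (43.2%, background 30.7%) and 10 in Pax6-ON cells. Pax6-OFF then had the most, and Pax6-HIGH stood at its background. The 16 members lost in Pax6-HIGH cells included both liver X receptors, all 3 retinoic acid receptors, the glucocorticoid receptor Nr3c1 and the vitamin D receptor Vdr.

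**Figure D1:**
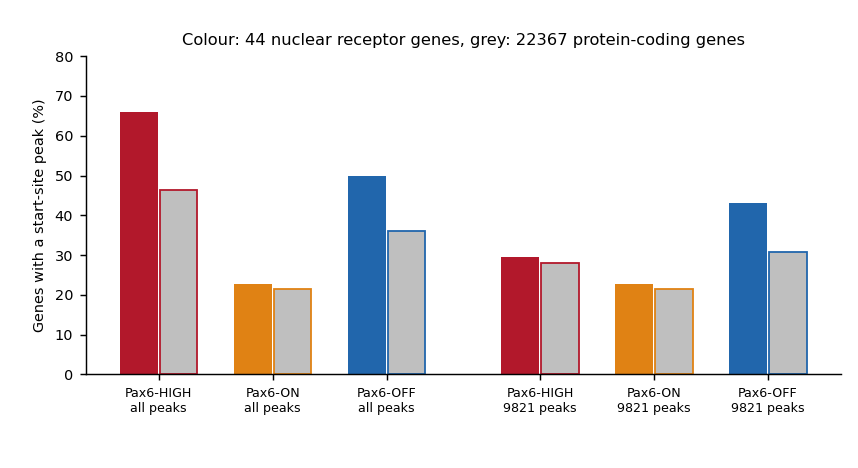
Share of genes with a start-site peak in each line, for the 44 nuclear receptor genes (coloured bars) and for 22367 protein-coding genes (grey bars), with all called peaks on the left and with 9821 peaks per line on the right. The coloured bar for Pax6-HIGH cells drops from 65.9% to 29.5%, close to the grey bar at 28.0%, while that for Pax6-OFF cells moves from 50% to 43.2%.

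By combination of lines, 6 members had a start-site peak in all 3 lines (Esrra, Nr1d2, Nr2c2, Nr4a1, Nr4a2 and Nr6a1), with 17.5% of all genes in this class. A further 14 had one in Pax6-HIGH and Pax6-OFF but not Pax6-ON cells (background 15.6%), and 4 had one in Pax6-HIGH and Pax6-ON but not Pax6-OFF cells (background 2.32%). Calls in Pax6-HIGH cells alone were made for 5 (background 11.1%) and in Pax6-OFF cells alone for 2 (background 2.48%). None was called in Pax6-ON cells alone (background 1.06%) or in Pax6-ON and Pax6-OFF cells without Pax6-HIGH cells (background 0.563%). No line had a start-site peak at 13 members, with 49.5% of all genes in this class. With 9821 peaks per line, Esrrg alone kept a start-site peak restricted to Pax6-HIGH cells, Nr4a3 became the 1 restricted to Pax6-ON cells, and 9 were restricted to Pax6-OFF cells (Nr2f2, Nr3c1, Ppard, Rara, Rarg, Rora, Rxrb, Thrb and Vdr). Of all genes, 4.40%, 2.25% and 6.88% were in these classes. They hold for that cut only, since among all called peaks only Rora and Thrb of the 9 lacked a Pax6-HIGH start-site peak. The Pax6-HIGH peaks left out held 116 fragments at Nr4a3 (86.3 percentile) and 74 at Nr3c1 (68.3 percentile). Both outranked the peak kept, at the 24.4 percentile in Pax6-ON cells and the 60.8 percentile in Pax6-OFF cells. By pileup, Nr2f2 (64.5 against 64.6 percentile), Ppard, Rara, Rarg, Rxrb and Vdr ranked higher in Pax6-OFF cells. By fold enrichment over the local background at overlapping peaks, Rxrb and Vdr ranked lower in Pax6-OFF cells. Nr2f2, Ppard, Rara and Rarg ranked higher there by this measure too.

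**Figure D2:**
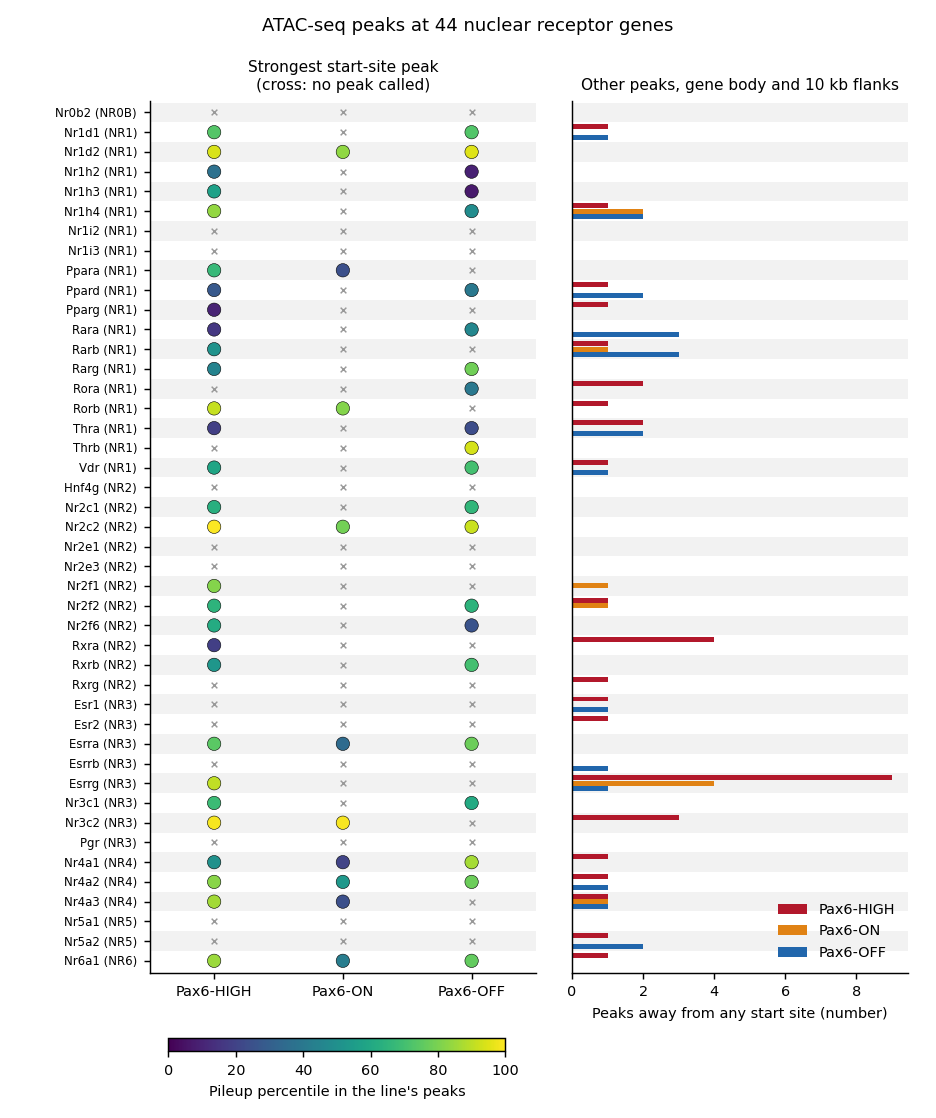
Start-site peaks and other peaks of the 44 nuclear receptor genes, ordered by subfamily. On the left, the colour of a circle is the pileup percentile of the strongest start-site peak among all peaks of that line and a cross marks no called peak. On the right, bars count peaks away from any annotated start site. The Pax6-ON column holds 10 circles against 29 and 22, and Esrrg has the longest bars, with 9 peaks in Pax6-HIGH cells.

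The strength of a peak is given here as its pileup and as its percentile, the share of the line's own peaks with a lower pileup, because pileups were not scaled for depth and were not compared between lines. The median percentile of the members' strongest start-site peaks was 64.5 in Pax6-HIGH cells, below the 71.9 of all genes with one. It was 47.7 against 56.0 in Pax6-ON cells and 67.9 against 60.8 in Pax6-OFF cells. By fold enrichment over the local background the same peaks lay below all genes in every line, with medians of 4.15 against 5.00 in Pax6-HIGH cells, 3.99 against 4.28 in Pax6-ON cells and 3.91 against 4.56 in Pax6-OFF cells, so the position of Pax6-OFF cells depends on the measure. The summit lay upstream of the nearest start site in 28 of 39 start-site peaks in Pax6-HIGH cells, in 9 of 12 in Pax6-ON cells and in 20 of 27 in Pax6-OFF cells, at a median of -106, -138 and -97 bp.

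**Figure D3:**
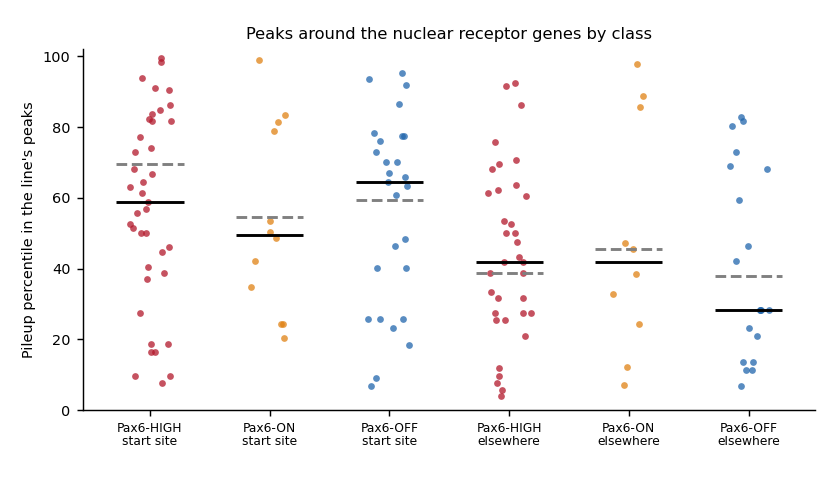
Pileup percentile of each distinct peak around the nuclear receptor genes (points), at start sites and away from any start site (elsewhere), in the 3 lines. Black bars mark the median of the points and dashed grey bars the median of all peaks of that class in the line. The black bar lies under the grey bar at start sites in Pax6-HIGH and Pax6-ON cells and over it in Pax6-OFF cells.

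Where both lines had start-site peaks, at least 1 pair overlapped at 19 of 20 members for Pax6-HIGH and Pax6-OFF, at 10 of 10 for Pax6-HIGH and Pax6-ON and at 6 of 6 for Pax6-ON and Pax6-OFF. The strongest peaks of both lines overlapped at 13 of 20, 9 of 10 and 6 of 6, since several members have more than 1 start site. Percentiles were therefore compared at overlapping peaks, taking the pair of highest mean percentile per gene. They were higher in Pax6-OFF than in Pax6-HIGH cells at 12 of 19 members, with a median difference of 2.81 points, while over 7322 genes with such a pair the median difference was -10.2 points. Percentiles of fold enrichment at the same peaks differed by a median of 0.59 points over the members and -5.87 points over all genes. From Pax6-HIGH to Pax6-ON cells the median difference in pileup percentile was -29.1 points over 10 members and -24.1 points over 4384 genes. From Pax6-ON to Pax6-OFF cells it was 29.1 points over 6 members and 12.0 points over 4010 genes. The direction was that of all genes in the comparisons with Pax6-ON cells.

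**Figure D4:**
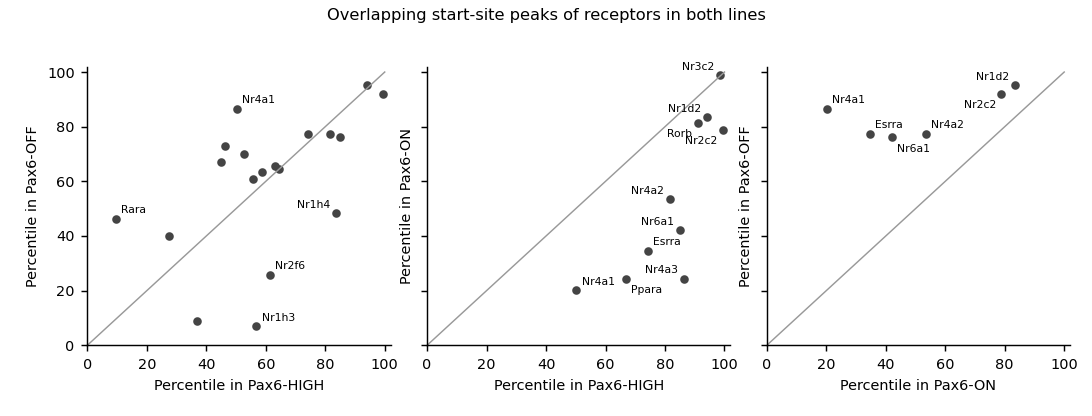
Pileup percentile of overlapping start-site peaks in one line against another, 1 pair per member, with the line of equal percentiles. All 6 members of the right panel lie above the line, and in the middle panel Nr3c2 is the 1 member of 10 above it. In the left panel, of 19 members, Nr4a1 and Rara lie above the line by more than 30 points and Nr1h3, Nr2f6 and Nr1h4 lie below it by more than 30 points.

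The NR4A genes encode immediate early orphan receptors that are transcribed within minutes of cAMP or growth signals. All 3 had start-site peaks in both Pax6-expressing lines, which no other subfamily of more than 1 member did. Nr4a1 and Nr4a2 had one in Pax6-OFF cells as well. Of all genes, 17.5% had one in all 3 lines and 2.32% in Pax6-HIGH and Pax6-ON cells only. At Nr4a1 (Nur77) the start-site peak held 54 fragments in Pax6-HIGH cells (50.2 percentile), 45 in Pax6-ON cells (20.3 percentile) and 91 in Pax6-OFF cells (86.6 percentile), and it ranked highest in Pax6-OFF cells. At Nr4a2 (Nurr1) the peak over the first start site held 101 fragments in Pax6-HIGH cells (81.6 percentile), 63 in Pax6-ON cells (53.4 percentile) and 74 in Pax6-OFF cells (77.5 percentile). An internal start site of Nr4a2 had a peak of 103 fragments in Pax6-HIGH cells (82.3 percentile) and 61 in Pax6-ON cells (50.3 percentile), and none in Pax6-OFF cells. By fold enrichment this peak stood at the 36.6 percentile in Pax6-HIGH cells and the 54.9 percentile in Pax6-ON cells. At Nr4a3 (Nor1) the start-site peak held 116 fragments in Pax6-HIGH cells (86.3 percentile) and 47 in Pax6-ON cells (24.4 percentile), and none was called in Pax6-OFF cells. By fold enrichment it ranked low, at the 23.2 percentile in Pax6-HIGH cells and the 4.83 percentile in Pax6-ON cells. An upstream element at Nr4a3, with its summit at -1760 bp from the start site in Pax6-HIGH cells, was called in all 3 lines. It held 149 fragments in Pax6-HIGH cells (92.4 percentile), 116 in Pax6-ON cells (88.8 percentile) and 82 in Pax6-OFF cells (82.8 percentile), and outranked the start-site peak of Nr4a3 itself in both lines that had one. By fold enrichment the element stood at the 51.5 percentile in Pax6-HIGH cells, 82.4 in Pax6-ON cells and 76.3 in Pax6-OFF cells. Pax6-HIGH cells were thus highest by pileup and lowest by fold enrichment. By pileup the element was among the 2 strongest other peaks of the set in every line.

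The 200 bases before the start sites under the NR4A peaks shared by most lines are shown because these promoters were open in at least 2 lines and carry a repeated motif. Capitals mark TGACG on either strand (CGTCA on the other), the conserved core of the cAMP response element TGACGTCA bound by CREB-family factors. The coordinates are chr15:101097077-101097276 on the + strand for Nr4a1, chr2:56976415-56976614 on the - strand for Nr4a2 and chr4:48057825-48058024 on the + strand for Nr4a3 (mm9), all upstream of the first exon and inside the peak of Pax6-HIGH cells.
Nr4a1 upstream: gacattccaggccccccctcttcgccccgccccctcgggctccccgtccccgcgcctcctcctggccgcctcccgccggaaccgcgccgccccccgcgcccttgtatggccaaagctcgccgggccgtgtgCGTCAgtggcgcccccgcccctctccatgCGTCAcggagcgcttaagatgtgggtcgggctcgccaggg
Nr4a2 upstream: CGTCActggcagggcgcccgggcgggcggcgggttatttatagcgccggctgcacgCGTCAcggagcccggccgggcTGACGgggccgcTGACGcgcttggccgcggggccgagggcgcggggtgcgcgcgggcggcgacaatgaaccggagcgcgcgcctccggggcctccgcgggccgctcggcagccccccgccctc
Nr4a3 upstream: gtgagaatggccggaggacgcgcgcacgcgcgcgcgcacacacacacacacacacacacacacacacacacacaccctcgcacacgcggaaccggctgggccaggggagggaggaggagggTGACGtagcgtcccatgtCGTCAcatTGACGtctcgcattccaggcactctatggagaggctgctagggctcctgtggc
TGACG was matched 2 times in the Nr4a1, 4 times in the Nr4a2 and 3 times in the Nr4a3 sequence. Of the 200-base promoters of all 22367 protein-coding genes, 17.2% held at least 1 match, 3.89% at least 2, 0.693% at least 3 and 0.143% at least 4. None of these 3 sequences held the full TGACGTCA, which 1.83% of all promoters did. TGACG was added as a motif after the sequences had been seen, so these shares describe it and do not test it. The promoters counted included those without a peak. The element upstream of Nr4a3 (151 bases around the summit in Pax6-HIGH cells, chr4:48056190-48056340, + strand, intergenic) is shown because all 3 lines had a peak on it, and it held 1 match.
Nr4a3 upstream element: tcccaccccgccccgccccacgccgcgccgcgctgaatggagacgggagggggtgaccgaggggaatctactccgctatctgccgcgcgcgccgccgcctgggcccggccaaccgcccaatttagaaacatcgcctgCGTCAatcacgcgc

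The NR1D genes encode REV-ERBα (Nr1d1) and REV-ERBβ (Nr1d2), heme-binding repressors of the circadian clock. Nr1d2 had a start-site peak of 163 fragments in Pax6-HIGH cells (94.0 percentile), 100 in Pax6-ON cells (83.4 percentile) and 128 in Pax6-OFF cells (95.3 percentile), the member of highest percentile in Pax6-OFF cells. Nr1d1 had peaks in Pax6-HIGH and Pax6-OFF cells and none in Pax6-ON cells. Over its start site the peak held 51 fragments in Pax6-HIGH cells (46.2 percentile) and 68 in Pax6-OFF cells (72.8 percentile). By fold enrichment this peak stood at the 36.8 percentile in Pax6-HIGH cells and at the 37.3 percentile in Pax6-OFF cells. A second site in an intron of Nr1d1 held 82 fragments in Pax6-HIGH cells (73.1 percentile) and 78 in Pax6-OFF cells (80.4 percentile). Its percentiles by fold enrichment were 71.5 in Pax6-HIGH cells and 52.0 in Pax6-OFF cells. It lay 957 bp from the start site in Pax6-HIGH cells, the most distant start-site peak of the set, and 1048 bp in Pax6-OFF cells, where it counted as an other peak. Both sites lie within 10 kb of the converging thyroid hormone receptor gene Thra, so they were listed for both genes and their part in Thra was not tested. The upstream sequences are shown because both genes are clock repressors of 1 subfamily with calls in different lines (chr11:98636648-98636847 for Nr1d1 and chr14:19071642-19071841 for Nr1d2, both on the - strand). Capitals mark AGGTCA, the half-site bound by many nuclear receptors.
Nr1d1 upstream: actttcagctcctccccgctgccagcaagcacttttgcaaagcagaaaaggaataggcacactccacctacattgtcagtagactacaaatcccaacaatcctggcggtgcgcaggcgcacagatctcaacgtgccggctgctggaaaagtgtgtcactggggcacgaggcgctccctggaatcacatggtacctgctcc
Nr1d2 upstream: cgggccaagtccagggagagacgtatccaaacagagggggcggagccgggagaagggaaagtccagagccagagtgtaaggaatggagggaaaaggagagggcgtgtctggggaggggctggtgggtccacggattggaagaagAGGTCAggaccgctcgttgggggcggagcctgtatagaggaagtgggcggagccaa
AGGTCA was matched 1 time in the Nr1d2 sequence and was not in the Nr1d1 sequence, while 10.0% of all promoters held it. The E-box CACGTG, bound by CLOCK and its partner, was in neither window, and 5.58% of all promoters held it.

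The thyroid hormone receptor genes differed in line. Thrb had a single peak in the 3 tables, a start-site peak of 117 fragments in Pax6-OFF cells (93.7 percentile, rank 869 of 14022). No peak was called in its gene body or flanks in the other lines. Thra had weak start-site peaks of 36 fragments in Pax6-HIGH cells (18.6 percentile) and 38 in Pax6-OFF cells (23.3 percentile). Thra was the 1 member with start-site peaks in both lines and no overlap between them, as the Pax6-HIGH summit lay at -326 bp from the first start site and the Pax6-OFF summit 1300 bp after it, at another start site. The Thrb promoter is shown as the strongest start-site call restricted to 1 line (chr14:18493274-18493473, + strand, inside the Pax6-OFF peak). Capitals mark 1 AGGTCA match and 1 TGACG match.
Thrb upstream: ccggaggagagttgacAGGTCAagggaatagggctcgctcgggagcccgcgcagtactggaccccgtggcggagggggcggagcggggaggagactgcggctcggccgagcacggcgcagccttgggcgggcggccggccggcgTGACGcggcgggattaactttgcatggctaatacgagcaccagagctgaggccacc

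The retinoic acid receptors bind all-trans retinoic acid as dimers with RXR. Rara had start-site peaks at internal start sites. The strongest pair held 32 fragments in Pax6-HIGH cells (9.66 percentile) and 48 in Pax6-OFF cells (46.4 percentile). Another site held 35 fragments in Pax6-HIGH cells (16.3 percentile) and 36 in Pax6-OFF cells (18.4 percentile), and there were 3 further intronic peaks in Pax6-OFF cells of 34 to 63 fragments. Rarg had peaks at the same start sites in both lines. The first start site held 50 fragments in Pax6-HIGH cells (44.8 percentile) and 62 in Pax6-OFF cells (67.0 percentile), and an internal one held 35 (16.3 percentile) and 75 fragments (78.2 percentile). Rarb had a start-site peak in Pax6-HIGH cells alone, with 55 fragments (51.4 percentile) at an internal start site 243202 bp into the gene. No retinoic acid receptor had a start-site peak in Pax6-ON cells. In an intron of Rarb, with its summit at -22872 bp from the nearest start site in Pax6-OFF cells, a site was called in all 3 lines with 37 fragments in Pax6-HIGH cells (20.9 percentile), 47 in Pax6-ON cells (24.4 percentile) and 64 in Pax6-OFF cells (69.1 percentile). It was the only peak at a retinoic acid receptor gene in Pax6-ON cells, and its summit sequence is shown for that reason (chr14:17430783-17430933, - strand). Capitals mark TGACTCA, the reverse complement of the AP-1 motif TGAGTCA.
Rarb intronic site: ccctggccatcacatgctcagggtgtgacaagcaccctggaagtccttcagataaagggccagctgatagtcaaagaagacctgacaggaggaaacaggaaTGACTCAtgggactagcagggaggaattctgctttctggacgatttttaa

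The peroxisome proliferator-activated receptors bind fatty acids with RXR as partner. Ppara had a start-site peak of 72 fragments in Pax6-HIGH cells (66.9 percentile) and 47 in Pax6-ON cells (24.4 percentile) and none in Pax6-OFF cells. The strongest other peak listed for a member in Pax6-OFF cells, with 89 fragments (85.8 percentile), was in the Ppara flank but sat on the start site of the neighbouring 2210021J22Rik. Ppard had 40 fragments in Pax6-HIGH cells (27.5 percentile) and 45 in Pax6-OFF cells (40.1 percentile). Pparg, the adipogenic member of the group, had peaks in Pax6-HIGH cells alone. Its start-site peak was weak, with 32 fragments (9.66 percentile), whereas an intronic site 119221 bp into the gene held 144 fragments (91.7 percentile). Pparg lies on chromosome 6, the source of 14.9% of peaks in Pax6-HIGH cells, and among peaks there the intronic site ranked at the 88.7 percentile. By fold enrichment, among all Pax6-HIGH peaks, the start-site peak stood at the 16.6 percentile and the intronic site at the 69.1 percentile. The site is shown because it outranked the promoter of its gene (chr6:115430385-115430535, + strand), with 1 TGAGTCA match in capitals.
Pparg intronic site: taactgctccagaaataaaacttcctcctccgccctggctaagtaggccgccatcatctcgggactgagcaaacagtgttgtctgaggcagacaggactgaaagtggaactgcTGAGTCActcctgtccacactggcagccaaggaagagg

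The ROR genes encode orphan receptors that act on the clock genes opposite to REV-ERB. Rorb had a start-site peak of 140 fragments in Pax6-HIGH cells (91.1 percentile) and 96 in Pax6-ON cells (81.4 percentile), and no peak in Pax6-OFF cells. It was among the 5 members of highest percentile in both Pax6-expressing lines. Rora had a start-site peak in Pax6-OFF cells alone, with 45 fragments (40.1 percentile) at an internal start site 636017 bp into the gene. In Pax6-HIGH cells Rora had 2 intronic peaks of 46 and 54 fragments and no start-site peak.

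The oxysterol and bile acid receptors had start-site peaks in Pax6-HIGH cells and in Pax6-OFF cells. Nr1h2 (LXRβ) had 45 fragments in Pax6-HIGH cells (37.0 percentile) and 32 in Pax6-OFF cells (9.06 percentile). Nr1h3 (LXRα) had 60 fragments in Pax6-HIGH cells (56.9 percentile) and 31 in Pax6-OFF cells (6.92 percentile), on a peak that also lies within 1 kb of the start of Acp2. Nr1h4 (FXR) had 107 fragments in Pax6-HIGH cells (83.6 percentile) and 49 in Pax6-OFF cells (48.3 percentile). By fold enrichment Nr1h4 stood at the 49.9 percentile in Pax6-HIGH cells and at the 52.0 percentile in Pax6-OFF cells. Nr1h4 also had 2 intronic sites that were called in Pax6-ON and Pax6-OFF but not Pax6-HIGH cells, 2 of the 3 such sites of the set. They held 59 and 54 fragments in Pax6-ON cells and 68 and 56 in Pax6-OFF cells. Vdr had a shared peak at an internal start site, with 62 fragments in Pax6-HIGH cells (58.8 percentile) and 59 in Pax6-OFF cells (63.4 percentile). By fold enrichment the shared peak stood at the 70.6 percentile in Pax6-HIGH cells and at the 54.1 percentile in Pax6-OFF cells. Pax6-OFF cells had a further start-site peak of 65 fragments (70.1 percentile) that did not overlap the shared one. The xenobiotic receptors Nr1i2 (PXR) and Nr1i3 (CAR) had no start-site peak. The peak listed for Nr1i3, with 158 fragments in Pax6-HIGH cells (93.5 percentile), was on the start site of Tomm40l, and 82 and 72 fragments were counted there in Pax6-ON and Pax6-OFF cells.

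Start-site peaks were found at 7 of the 11 NR2 genes in Pax6-HIGH cells, at 1 in Pax6-ON cells and at 5 in Pax6-OFF cells (background 46.4%, 21.4% and 36.1%). Nr2c2 (TR4), an orphan receptor, was the highest member in Pax6-HIGH cells, with 369 fragments (99.6 percentile, rank 124 of 28024). It held 91 fragments in Pax6-ON cells (78.9 percentile) and 109 in Pax6-OFF cells (92.0 percentile). Nr2c2 lies on chromosome 6, and within that chromosome its Pax6-HIGH peak stood at the 99.0 percentile. Its relative Nr2c1 (TR2) had 67 fragments in Pax6-HIGH cells (63.0 percentile) and 61 in Pax6-OFF cells (65.8 percentile).

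The COUP-TF genes, which encode orphan receptors of organ development, were called in different combinations. Nr2f1 had a start-site peak in Pax6-HIGH cells alone, with 101 fragments (81.6 percentile, or 32.3 by fold enrichment). It lay within 1 kb of the starts of A830082K12Rik and Gm8327. Accessibility has no strand, so the openings of these overlapping transcription units cannot be told apart. Nr2f2 had 69 fragments in Pax6-HIGH cells (64.5 percentile) and 60 in Pax6-OFF cells (64.6 percentile). A Pax6-ON peak of 58 fragments (45.4 percentile) overlapped both but ended 1044 bp from the start site, just beyond the 1 kb limit, so the absence of a Pax6-ON call at Nr2f2 depends on that limit. Nr2f6 had 65 fragments in Pax6-HIGH cells (61.3 percentile) and 39 in Pax6-OFF cells (25.8 percentile).

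The RXR genes encode the common dimer partners. Rxra had 36 fragments at an internal start site in Pax6-HIGH cells (18.6 percentile), with 4 weak peaks away from start sites of 39 to 56 fragments, and no peak in the other lines. Rxrb had 56 fragments in Pax6-HIGH cells (52.5 percentile) and 65 in Pax6-OFF cells (70.1 percentile), on a promoter region shared with Slc39a7. By fold enrichment Rxrb stood at the 54.4 percentile in Pax6-HIGH cells and at the 49.5 percentile in Pax6-OFF cells. Rxrg had 1 peak away from start sites, of 33 fragments, in Pax6-HIGH cells. No RXR gene had any peak in Pax6-ON cells. Hnf4g, Nr2e1 and Nr2e3 had no peak in any line.

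Among the steroid receptors, the mineralocorticoid receptor Nr3c2 ranked highest. Its start-site peak held 265 fragments in Pax6-HIGH cells (98.6 percentile, rank 397 of 28024) and 275 in Pax6-ON cells (98.9 percentile, rank 105 of 9821), and no peak was called anywhere at the gene in Pax6-OFF cells. It was the highest member in Pax6-ON cells and the second in Pax6-HIGH cells. The Pax6-ON summit lay 2675 bp after the first start site, at -171 bp from an alternative one. The first start site had a separate Pax6-HIGH peak of 90 fragments (77.2 percentile), near the start of Gm10649, and none in Pax6-ON cells. That peak was only 1.98-fold over the local background, the 0.68 percentile by fold enrichment. The 200 bases before the alternative start are shown as the strongest start-site region called in both Pax6-expressing lines and not in Pax6-OFF cells (chr8:79425987-79426186, + strand). No capitals appear, since the motifs marked in the other sequences were not matched.
Nr3c2 alternative promoter: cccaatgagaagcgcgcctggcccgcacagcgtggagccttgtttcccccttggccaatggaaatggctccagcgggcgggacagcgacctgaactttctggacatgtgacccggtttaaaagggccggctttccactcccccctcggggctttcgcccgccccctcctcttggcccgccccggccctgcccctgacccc

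The glucocorticoid receptor Nr3c1, which has several alternative promoters, had 4 start-site peaks in Pax6-HIGH cells and 2 in Pax6-OFF cells. Of the overlapping peaks, one pair held 59 fragments in Pax6-HIGH cells (55.8 percentile) and 57 in Pax6-OFF cells (60.8 percentile), and the other held 74 (68.3 percentile) and 39 fragments (25.8 percentile). No peak was called in Pax6-ON cells. The estrogen receptor genes Esr1 and Esr2 had no start-site peak in any line. Esr1 had 1 intronic site of 48 fragments in Pax6-HIGH cells and 34 in Pax6-OFF cells, and Esr2 had 1 intronic peak of 64 fragments in Pax6-HIGH cells. Nothing was called at the progesterone receptor gene Pgr.

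The estrogen-related receptors are orphan regulators of energy metabolism. Esrra had 84 fragments in Pax6-HIGH cells (74.2 percentile), 52 in Pax6-ON cells (34.7 percentile) and 74 in Pax6-OFF cells (77.5 percentile). Esrrb had 1 intronic peak of 33 fragments, in Pax6-OFF cells.

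Esrrg had the most peaks of any member away from start sites. Of these, 9 were in Pax6-HIGH cells, 4 in Pax6-ON cells and 1 in Pax6-OFF cells, and all were intronic. Esrrg is 606 kb long, against a median of 48.2 kb over the members, and the longer Rora (734 kb) had 2 such peaks. The part of gene length in these counts was not tested. The Esrrg start-site peak, in Pax6-HIGH cells alone, held 136 fragments (90.5 percentile) at an internal start site 388985 bp into the gene. The strongest Pax6-HIGH peak elsewhere was 222711 bp into the gene, with 116 fragments (86.3 percentile). In Pax6-ON cells a site 302145 bp into the gene held 206 fragments, 10.9-fold over the local background (97.8 percentile, rank 217 of 9821). It was the strongest Pax6-ON peak of the set away from start sites. Pax6-OFF cells had an overlapping peak of 80 fragments (81.7 percentile) and Pax6-HIGH cells had none. A further Pax6-ON site, 131936 bp into the gene, held 106 fragments (85.7 percentile) and was called in no other line. Pax6-HIGH and Pax6-ON cells shared 1 weak site, with 40 and 38 fragments.

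**Figure D5:**
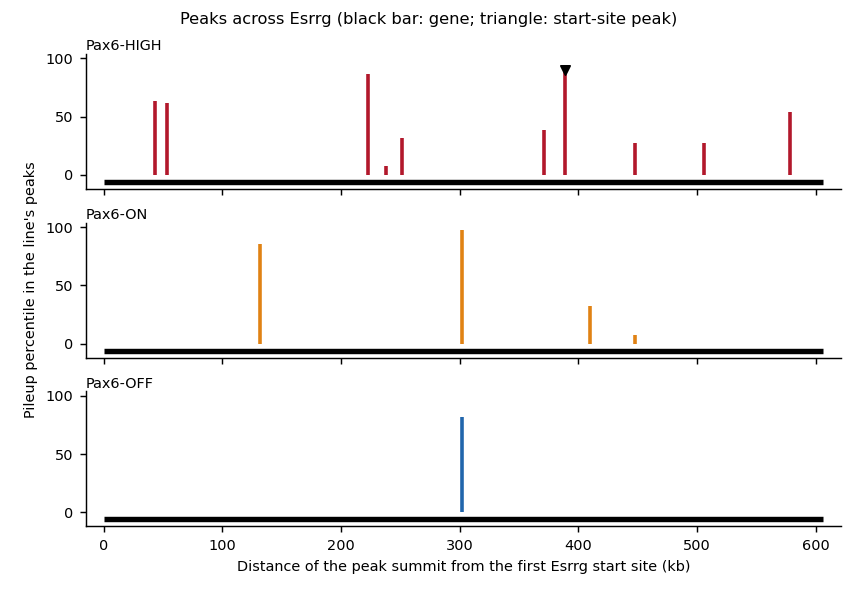
Peaks across Esrrg in the 3 lines, with the distance of the summit from the first start site in kb on the horizontal axis and the pileup percentile on the vertical axis. The black bar is the gene and the triangle the start-site peak of Pax6-HIGH cells (90.5 percentile). The tallest Pax6-ON line (97.8 percentile) stands at the same position as the single Pax6-OFF line (81.7 percentile), where Pax6-HIGH cells have no line.

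The summit sequences of the 3 strongest of these intronic sites, 151 bases each, are shown to compare the lines (chr1:189734740-189734890, chr1:189564531-189564681 and chr1:189655306-189655456, + strand). Capitals mark TGAGTCA or its reverse complement TGACTCA, and CGTCA in the third sequence.
Esrrg site of Pax6-ON and Pax6-OFF cells: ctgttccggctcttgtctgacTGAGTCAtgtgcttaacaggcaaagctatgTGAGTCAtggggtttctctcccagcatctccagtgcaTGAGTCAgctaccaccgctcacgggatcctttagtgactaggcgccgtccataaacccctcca
Esrrg site of Pax6-ON cells: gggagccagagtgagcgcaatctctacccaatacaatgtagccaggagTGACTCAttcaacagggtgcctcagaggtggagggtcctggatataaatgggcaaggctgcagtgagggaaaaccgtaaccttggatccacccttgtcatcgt
Esrrg site of Pax6-HIGH cells: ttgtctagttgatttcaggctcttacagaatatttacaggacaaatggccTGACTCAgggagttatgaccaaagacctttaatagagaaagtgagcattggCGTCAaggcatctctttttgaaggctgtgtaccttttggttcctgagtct
The first sequence held 3 matches to the AP-1 motif, at bases 22 to 28, 52 to 58 and 89 to 95, and 0.299% of Pax6-ON peaks away from start sites held at least 3. The second and the third held 1 match each.

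The remaining subfamilies had few peaks. Nr6a1 (GCNF), an orphan receptor known from germ and embryonic stem cells, had a start-site peak in all lines, with 111 fragments in Pax6-HIGH cells (85.0 percentile), 56 in Pax6-ON cells (42.1 percentile) and 72 in Pax6-OFF cells (76.1 percentile). The steroidogenic factor gene Nr5a1 had no peak. Nr5a2 (LRH-1) had no start-site peak, and had 1 peak in Pax6-HIGH cells and 2 in Pax6-OFF cells of 33 to 48 fragments. Nr0b2 (SHP), which lacks a DNA-binding domain, had only a flanking peak on the start site of Nudc. In all, 6 members had no peak in any line: Hnf4g, Nr1i2, Nr2e1, Nr2e3, Nr5a1 and Pgr. The 13 members without a start-site peak had a median observed over expected CpG of 0.572 within 500 bp of their most CpG-rich start site. The medians were 0.813, 0.722 and 0.784 for members called in 1, 2 and 3 lines. Over all genes, the medians were 0.272 without a start-site peak and 0.698, 0.791 and 0.802 in 1, 2 and 3 lines. The median of the members without a start-site peak lay above that of all genes without one, but these members ranged from 0.153 to 0.882. The most CpG-rich start site was taken per gene, and the 44 members had a median of 5 start sites against 2 over all genes. The part of start-site number in this difference was not tested.

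Away from all annotated start sites, the members had 35 peaks in Pax6-HIGH cells, 10 in Pax6-ON cells and 20 in Pax6-OFF cells, from 24 of the 44 genes. Merging those that overlapped gave 53 sites. Of these, 28 were seen in Pax6-HIGH cells alone, 4 in Pax6-ON alone and 11 in Pax6-OFF alone, without counting start-site peaks at the same place. Sites in all 3 lines were found 2 times, at Nr4a3 and Rarb. Overlap with any peak of another line was found for 7 of 35 peaks in Pax6-HIGH cells (20%, against 17.0% of all such peaks), 8 of 10 in Pax6-ON cells (80%, against 44.9%) and 10 of 20 in Pax6-OFF cells (50%, against 53.0%).

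Motifs were counted on both strands in the 151 bases around these summits. TGAGTCA was in 3 of 35 windows in Pax6-HIGH cells (8.57%, against 8.35% of all such peaks), 6 of 10 in Pax6-ON cells (60%, against 32.0%) and 4 of 20 in Pax6-OFF cells (20%, against 16.6%). The order of the lines was the same in all peaks as in the members. AGGTCA was in 3 of 35, 0 of 10 and 2 of 20 windows, against 10.7%, 9.90% and 9.34%. The steroid receptor half-site AGAACA was in 4, 1 and 2 windows, against 10.6%, 11.0% and 8.96%. CACGTG was in 0, 0 and 1. The longer half-sites AAAGGTCA and TCAAGGTCA, TGACGTCA and the direct (1 to 5 bases between), inverted (0 or 1 between) and everted (6 between) repeats of AGGTCA were in 0 windows of each line. TGACG lies within TGACGTCA, and AGGTCA within its extended forms, so these counts overlap. TGACG was in 8 of 35 windows in Pax6-HIGH cells (22.9%, against 8.01% of all such peaks), 2 of 10 in Pax6-ON cells (20%, against 8.45%) and 1 of 20 in Pax6-OFF cells (5%, against 6.32%). At the members' start-site peaks, TGACG was in 9 of 39 windows in Pax6-HIGH cells, 6 of 12 in Pax6-ON cells and 7 of 27 in Pax6-OFF cells, against 22.2%, 21.3% and 23.2% of all start-site peaks. TGACG was added after the NR4A sequences had been seen, and NR4A peaks are among the windows with a match. Its shares therefore describe the members and do not test the motif. A match is a string of letters and does not show that a factor was bound.

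Genes that work with the receptors were described in the same way. Start-site peaks were found at 16 of 20 coregulators in Pax6-HIGH cells, at 9 in Pax6-ON cells and at 17 in Pax6-OFF cells (background 46.4%, 21.4% and 36.1%). The highest in Pax6-HIGH cells was the coactivator Ncoa2, with 346 fragments (99.4 percentile). Of 7 chaperones of steroid receptors, such as Hsp90ab1 and Fkbp4, 7, 5 and 7 had one. Of 11 clock genes, on which REV-ERB and ROR act, 11, 7 and 9 had one. Of 17 target genes of the receptors, such as Klf9 and Per1, 11, 3 and 9 had one. Of 11 genes of retinoid metabolism, 3, 2 and 3 had one, among them the retinol dehydrogenase Rdh10 with 190 fragments in Pax6-HIGH cells (96.0 percentile), 44 in Pax6-ON cells (18.3 percentile) and 55 in Pax6-OFF cells (57.9 percentile).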

How the data were processed

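Open chromatin was measured by ATAC-seq in duplicate in β-TC3, MV+ and RAG cells, and samples were grouped by the cell line of their labels. The authors trimmed reads with Trim Galore 0.4.1, aligned them to mm9 with Bowtie2 2.2.6 then pooled the replicates and ran MACS2 2.1.1 without a control, keeping peaks with a q-value under 0.05. Per the file headers, whole read pairs were used. The deposited pileup is a signal, the unscaled number of fragments at the summit, and the fold enrichment deposited beside it divides that number by the local background after adding a pseudocount of 1. The authors' p-values and q-values are deposited as −log10 values. Deeper libraries and a lower background let weaker sites be called, so counts of peaks depend on both. Submitters' notes also name SAMtools 1.6 and bedtools.

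Peaks were assigned with pandas 2.3.3 in Python 3.11.15 to genes of NCBIM37 (the assembly of mm9) with the GENCODE M1 annotation, with an overlap of at least 1 bp. All peaks ended inside the chromosomes of that assembly. Sequences were read from it. Assignment was tested on 200 simulated peaks among 22367 genes, and 100% of the 96 placed within 1 kb of a start site were recovered. The members and gene lists were chosen with earlier results of these data known. Values are given for members with a start-site peak in 1 or 2 lines, for the 5 of highest percentile per line, for the 2 strongest other peaks per line and for members with at least 6 other peaks in 1 line. Members called in all 3 lines and those without a start-site peak were added for completeness. Comparison at overlapping start-site peaks, TGACG and the sequences of Nr3c2, Thrb, Pparg and Rarb were added after the data had been seen. Alternatives were stricter q-values, equal peak numbers, other flanks and start-site windows, gene 5′ ends alone, placement by summit, rank by fold, overlap of 50% and leaving out chromosome 6. With 1 pooled call per line there was no replicate error and no test, and the marker symbols Sox1 and Spi1 were not matched in the annotation. Peak tables in a second format held the same calls and were not used.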

Additional observations from a re-analysis of the deposited data

How the results depend on the processing

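Of 199 values computed under alternatives, 179 stayed within 1.5 times the reported count or within the spread used for a value, and 20 moved. With 9821 peaks per line, Pax6-HIGH cells had 13 members with a start-site peak, 13 start-site peaks, 13 other peaks and 53.8% of other peaks overlapping another line. Members called in Pax6-HIGH alone were then 1, in Pax6-ON alone 1, in Pax6-OFF alone 9 and in no line 20. Without flanks, other peaks numbered 30 in Pax6-HIGH cells, 8 in Pax6-ON cells and 17 in Pax6-OFF cells, with overlaps of 16.7% in Pax6-HIGH cells and 47.1% in Pax6-OFF cells. With flanks of 50 kb they numbered 106, 25 and 65. With the gene 5′ end as the single start site, Pax6-HIGH cells had 24 start-site peaks, members in Pax6-OFF alone were 1 and members in no line were 20. Ranked among start-site peaks, the Pax6-HIGH median percentile was 43.6. By construction, equal numbers left out the Pax6-HIGH peaks of higher q-value, which were not always those of lower pileup. The Nr4a3 start-site peak (116 fragments) was left out, while that of Nr2c1 (67 fragments) was kept. Stricter q-values of 0.01 and 0.001, placement by summit, rank by fold enrichment, an overlap of 50%, windows of 250 and 2500 bp and leaving out chromosome 6 moved no value beyond these limits. Within the limits, the 2500 bp window raised members called in all 3 lines from 6 to 9 and in Pax6-ON cells from 10 to 13. Rank by fold enrichment lowered the Pax6-OFF median percentile from 67.9 to 56.0. No paired analysis was possible because the replicates of a line were pooled before calling, and no replicate could be left out. Called pileups began at 25 in Pax6-HIGH cells, 30 in Pax6-ON cells and 25 in Pax6-OFF cells. Sites that did not pass the q-value cut are not seen, whatever their pileup. Pax6-ON cells had the most fragments, the highest of these starting pileups and the fewest peaks, and the cause was not tested.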

Other observations

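At Nr1h4, a Pax6-HIGH peak of 141 fragments (91.2 percentile) lay 10015 bp from the gene and so was not counted, whereas the counted peak nearest to that limit, at Nr4a1 in Pax6-ON cells, held 33 fragments at 9165 bp. Of the members with a start-site peak, 6 in Pax6-HIGH cells (Esrrg, Nr2f2, Rara, Rarb, Rxra and Vdr), 1 in Pax6-ON cells (Nr3c2) and 4 in Pax6-OFF cells (Nr2f2, Rara, Rora and Vdr) had it more than 2 kb from the gene's first annotated start site.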
